A study of Mus musculus with 6 samples.

Results

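The genes described here are 10 inhibitory checkpoint receptors and ligands: Ctla4, Pdcd1, Cd274, Lag3, Tigit, Havcr2, Cd160, Cd244, Cd96 and Btla. They were found by symbol among the 23284 genes of each library, and all 10 were listed above 0 FPKM (the fragments mapped to a gene, divided by its length and by a measure of the library's size) in all 6 libraries. The list was chosen by what the genes do, at a time when the FPKM values of these libraries and the difference between the treatments were already known. The members' values are therefore given as a description, with standard errors and no p-value. RNA came from C1498 cells, a murine line labelled acute myeloid leukemia (AML), recovered from bone marrow 21 days after their transfer into mice. The cells were 1 clone carrying EGFP from a retroviral vector, and both groups were sorted as GFP-positive and CD49b-positive cells. The hosts were wild-type C57BL/6J mice, by the study's general statement young adult females. The cytarabine group had 3 mice and the control group 3 mice, each giving 1 library. Cytarabine, a nucleoside analogue that blocks DNA synthesis, was injected intraperitoneally, and the dose and days are not stated for the sequenced mice in particular. The controls are called both PBS-treated and untreated in the sources. The comparison asks how the checkpoint genes of the leukemia cells that remained after treatment differed from those of cells from control mice.

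Inhibitory checkpoint receptors sit on T cells and natural killer (NK) cells and lower their activity when they meet a ligand on another cell. PD-1 (Pdcd1) and CTLA-4 (Ctla4) belong to the CD28 family, and PD-L1 (Cd274) is a ligand of PD-1. TIGIT and CD96 share the ligand CD155 (Pvr) with the activating receptor CD226. BTLA and CD160 both bind HVEM (Tnfrsf14), CD244 binds CD48, LAG-3 (Lag3) binds MHC class II, and TIM-3 (Havcr2) has galectin-9 among its ligands. In acute leukemia, PD-L1 and other ligands on the blasts are studied as a means by which these cells evade T cells.

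The FPKM values carried no read counts, but the steps between low values of 2745 genes with 1 transcript gave an inferred total of 11500000 to 18900000 reads per library. A transcript of 2000 bases with 3 reads would then have 0.0881 to 0.145 FPKM. The libraries held RNA of other tissues in unequal amounts. The summed FPKM of 6 colon genes was 2263 and 2619 in cytarabine 2 and 3 and 1223 in control 1, against 180, 15.8 and 17.3 in cytarabine 1, control 2 and control 3. Heart genes were highest in control 1, at a sum of 2422 FPKM. The members with differences are therefore also given within the 3 libraries with much colon transcript and within the 3 with little of it, where 1 side of each comparison is a single library. The pan-leukocyte gene Ptprc was at 284 to 386 FPKM, and Itga2, which encodes CD49b, was at 7.79 to 8.11 FPKM with cytarabine and 10.6 to 13.3 FPKM in controls. The myeloid genes Itgam, Kit, Cd33 and Spi1 (listed as Sfpi1) reached at most 4.76, 1.59, 2.12 and 7.72 FPKM. Mpo and Elane, also myeloid, were at 71.05 and 81.7 FPKM in cytarabine 1 and at 2.33 to 12.3 FPKM in the other libraries. Of the CD3 genes, whose products join the T cell receptor, Cd3e and Cd3g were at 130 to 199 and 449 to 652 FPKM. Cd3d was at 3.61 to 9.99 FPKM, and Cd247, of the same complex, was at 0.284 to 0.765 FPKM. The cells are called C1498 cells here, without a lineage name.

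Expression of the 10 members spanned 3 ranges. FPKM is corrected for transcript length, so levels of different genes can be set side by side. Cd96, at a mean of 206 FPKM over the 6 libraries, and Cd160, at 169 FPKM, were the most abundant, and Cd96 was above 98.2% of all genes. Cd96 exceeded Cd160 in 6 of 6 libraries. Btla, Pdcd1, Cd244 and Cd274 formed a middle range, with means of 29.5, 25.8, 15.3 and 14.5 FPKM. Within it the order was not fixed: Btla exceeded Pdcd1 in 5 of 6 libraries, Pdcd1 exceeded Cd244 in 5 of 6 and Cd244 exceeded Cd274 in 3 of 6. Tigit and Ctla4 averaged 1.44 and 1.37 FPKM, and Lag3 and Havcr2 averaged 0.426 and 0.391 FPKM, with neighbours in that order ranked alike in 4 of 6 libraries. Cd96 and Cd160 together made up 75.5% to 76.9% of the members' summed FPKM with cytarabine and 84.5% to 86.2% in controls.

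**Figure D1:**
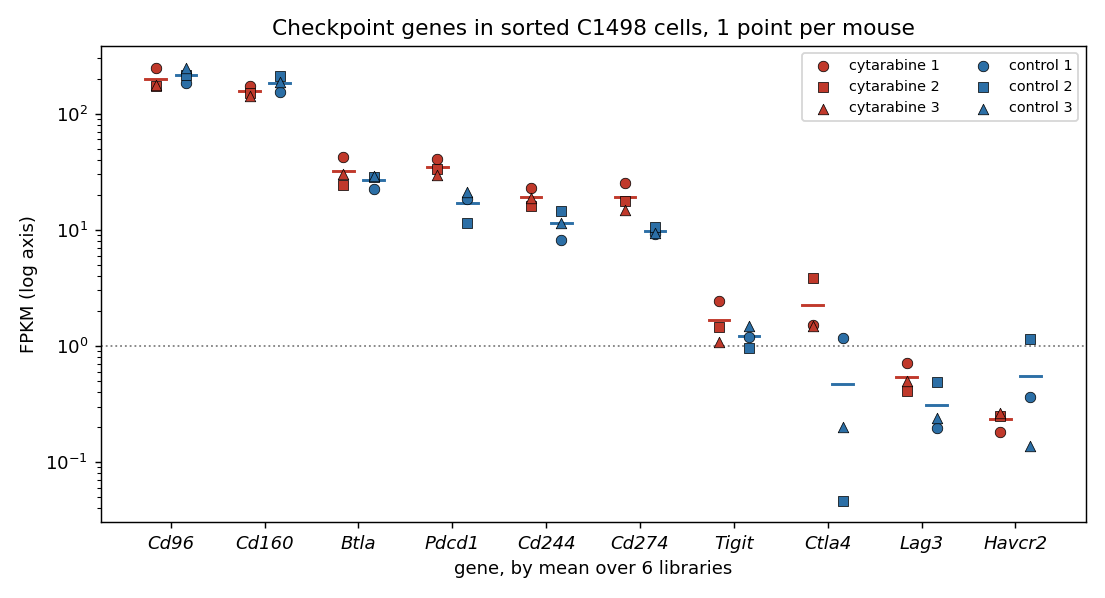
Each point is the FPKM (log axis) of 1 member in 1 library, red for cytarabine and blue for control, with short lines at the group means and a dotted line at 1 FPKM. Cd96 and Cd160 lie at 141 FPKM or more in every library, and the red and blue points separate for Pdcd1, Cd244, Cd274 and Ctla4.

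PD-1 and its ligands were measured in the same sorted cells. Pdcd1, which encodes the receptor PD-1, reached 41.0, 33.2 and 29.7 FPKM in the libraries cytarabine 1 to 3. In control 1 to 3 the level was 18.4, 11.5 and 20.9 FPKM, and all values that follow are in this order. Its mean was 34.6 ± 5.79 FPKM (SD, n = 3 mice) with cytarabine and 17.0 ± 4.87 FPKM (SD, n = 3) in controls, a ratio of 2.04. All 3 cytarabine libraries lay above all 3 controls, with control 2 the lowest of the 6. On the log2(FPKM + 1) scale the difference was 1.02 with a standard error of 0.24, and it was 1.34 within the libraries with little colon transcript and 0.74 within those with much of it. Pdcd1 lies on chromosome 1 from 94038305 to 94052553 (minus strand, GRCm38).

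Cd274, which encodes PD-L1, reached 25.2, 17.8 and 14.8 FPKM with cytarabine, against 9.25, 10.5 and 9.30 FPKM in controls. The means were 19.3 ± 5.31 FPKM (SD, n = 3) and 9.68 ± 0.705 FPKM (SD, n = 3), a ratio of 1.99. The controls were tightly grouped and all lay below the lowest cytarabine library, cytarabine 3. The log2 difference was 0.89 with a standard error of 0.19. It was 0.69 without cytarabine 1, the library with the highest level, and 1.27 and 0.75 within the libraries with little and with much colon transcript. Cd274 lies on chromosome 19 from 29367455 to 29388095 (plus strand, GRCm38), and 511 of its 3622 exon bases are shared with AC119228.1 on the other strand, whose reads would count toward Cd274 if strand was not used in counting. The library kit was stranded, and the strand setting of the counting is not given in the sources used here. The ratio of Pdcd1 to Cd274 was 1.63, 1.86 and 2.00 with cytarabine and 1.99, 1.10 and 2.25 in controls, so the groups overlapped in that ratio. Pdcd1lg2, the gene of the other PD-1 ligand PD-L2, is no member of the list. It was at 8.72, 6.48 and 7.99 FPKM with cytarabine and 4.43, 5.71 and 5.71 FPKM in controls (log2 fold change 0.47, standard error 0.15, unadjusted p = 0.0183, adjusted p = 0.211 from limma).

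Ctla4 encodes CTLA-4, which competes with CD28 for CD80 and CD86. Its level was 1.50, 3.85 and 1.47 FPKM with cytarabine, against 1.18, 0.0467 and 0.201 FPKM in controls. With 1933 bases of transcript these values correspond to 34, 126 and 34 reads with cytarabine and 29, 1.00 and 4.00 reads in controls. The 3 controls were spread widely, and control 1 came close to cytarabine 1 and 3, while control 2 was under 3 reads. Means were 2.27 ± 1.36 FPKM (SD, n = 3) and 0.475 ± 0.613 FPKM (SD, n = 3), so the gene passed the filter of a mean of 1 FPKM only through the cytarabine group. The log2 difference was 1.15 with a standard error of 0.43. It was 0.83 without cytarabine 2, 1.47 without control 1 and 2.49 with a pseudocount of 0.1. Within the libraries with little and with much colon transcript it was 1.16 and 0.67, the latter its lowest value. Cytarabine 2 and control 1, each the highest library of its group in Ctla4, have much colon transcript. Cytarabine 3, with the highest colon sum of all, had 34 reads, as did cytarabine 1, which has little colon transcript. The part of other tissues in the Ctla4 level was not tested.

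CD28 itself, which activates T cells through the same ligands, was far above Ctla4. Cd28 was at 36.4, 30.9 and 37.9 FPKM with cytarabine and 14.7, 12.4 and 14.0 FPKM in controls, with no overlap. Its log2 fold change was 1.29 with a standard error of 0.11 (unadjusted p = 2.18e-05, adjusted p = 0.128 from limma), and it differed by 1.40 and 1.17 within the libraries with little and with much colon transcript. The ratio of Cd28 to Ctla4 ranged from 8.04 to 25.8 with cytarabine and from 12.5 to 265 in controls, where the 1 read of control 2 sets the upper end. The ligand genes Cd80 and Cd86 were low, at 0.561 to 0.797 and 0.148 to 1.38 FPKM over all 6 libraries, and were not tested.

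Cd244 encodes CD244 (2B4), a receptor of NK cells and T cells that binds CD48 and can activate or inhibit, depending on the adaptor it recruits. It was at 22.9, 15.99 and 18.8 FPKM with cytarabine and 8.21, 14.6 and 11.4 FPKM in controls. Means were 19.2 ± 3.47 FPKM (SD, n = 3) and 11.4 ± 3.18 FPKM (SD, n = 3), a ratio of 1.69. The groups did not overlap, but the gap between cytarabine 2 and control 2 was small beside the spread within either group. The log2 difference was 0.72 (standard error 0.22), 0.78 with little and 0.99 with much colon transcript. Its ligand gene Cd48 was at 31.8, 23.5 and 27.7 FPKM with cytarabine and 17.1, 26.1 and 16.7 FPKM in controls, and these overlapped (adjusted p = 0.298 from limma). Sh2d1b1 encodes EAT-2, an adaptor that binds the tail of CD244. It was at 14.6, 11.3 and 9.31 FPKM with cytarabine and 3.94, 5.77 and 6.35 FPKM in controls (log2 fold change 1.01, standard error 0.22, unadjusted p = 0.00361, adjusted p = 0.151 from limma). The adaptor gene Sh2d1a (SAP) was at 15.6 to 21.8 FPKM in all libraries.

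Cd96, Tigit and their shared ligand overlapped between the groups. Cd96 was at 246, 172 and 176 FPKM with cytarabine and 182, 213 and 249 FPKM in controls. Its means were 198 ± 41.4 FPKM (SD, n = 3) and 214 ± 33.6 FPKM (SD, n = 3). The log2 difference was -0.12 with a standard error of 0.18, and it turned to 0.10 within the libraries with little colon transcript and to 0.016 when every library was scaled to the same level of Ptprc. Tigit was at 2.42, 1.46 and 1.09 FPKM with cytarabine and 1.20, 0.958 and 1.49 FPKM in controls. These levels rest on 8.53 to 22.8 inferred reads per library. The log2 difference of Tigit was 0.24 with a standard error of 0.27, it was 0.039 without cytarabine 1 and it was -0.043 with quantile normalization. The groups overlapped for both genes.

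The ligands and the activating receptor of this axis were measured as well. Pvr, the gene of CD155, was at 5.52 to 5.98 FPKM with cytarabine and 4.77 to 5.74 FPKM in controls. Cd226, the activating competitor of Cd96 and Tigit, was at 7.34, 5.61 and 6.85 FPKM with cytarabine and 6.96, 9.45 and 9.03 FPKM in controls (log2 fold change -0.32, standard error 0.15, adjusted p = 0.326 from limma). In each library Cd226 was between 2.98% and 4.44% of the level of Cd96. The nectin ligand genes Nectin2 and Nectin3, listed as Pvrl2 and Pvrl3, were at or above 3.78 FPKM in the 3 libraries with much colon transcript and below 1 FPKM in the other 3.

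BTLA and CD160 bind HVEM. Btla was at 42.2, 24.5 and 30.2 FPKM with cytarabine and 22.6, 28.5 and 28.8 FPKM in controls. Cytarabine 1 stood above the rest, and the other 5 libraries were intermixed. The log2 difference was 0.24 with a standard error of 0.21 and 0.034 without cytarabine 1. When every library was scaled to the same level of Ptprc, Btla amounted to 8.63% to 11.4% of the Ptprc level with cytarabine and 7.39% to 7.52% in controls, which did not overlap. That scaling moved the median log2 fold change of all genes to 0.12, and Btla then differed by 0.37.

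Cd160, a receptor of NK cells and some T cells that is anchored to the membrane by a lipid, was at 174, 151 and 141 FPKM with cytarabine and 152, 209 and 187 FPKM in controls. The log2 difference was -0.23 (standard error 0.14), and the groups overlapped. It was -0.18 and -0.060 within the libraries with little and with much colon transcript, and it was below 0 under each of 16 alternatives. Cd160 shares 68 of its 2642 exon bases with Pdzk1 on the other strand, which was at 10.8 to 22.2 FPKM. Tnfrsf14, the gene of HVEM, was at 7.22, 4.23 and 2.94 FPKM with cytarabine and 4.70, 4.11 and 5.05 FPKM in controls. The log2 fold change of Tnfrsf14 was -0.019 (adjusted p = 0.973 from limma). Tnfsf14 (LIGHT), the activating ligand of HVEM, was at 6.39 to 10.98 FPKM with cytarabine and 9.90 to 11.4 FPKM in controls.

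Lag3 and Havcr2 stayed below the filter and were not tested. Lag3 was at 0.720, 0.410 and 0.498 FPKM with cytarabine and 0.195, 0.493 and 0.241 FPKM in controls, or 17.0, 14.0 and 12.0 reads against 4.99, 10.97 and 4.99 reads. The groups overlapped in FPKM through cytarabine 2, the deepest library, and control 2. Havcr2 was at 0.181, 0.251 and 0.267 FPKM with cytarabine and 0.361, 1.15 and 0.137 FPKM in controls, or 5.98, 12.0 and 8.97 reads against 12.96, 35.9 and 3.99 reads. Control 2 held the highest Havcr2 and also the highest sum of 8 macrophage genes, 144 FPKM against 10.8 to 56.1 FPKM in the other 5 libraries. TIM-3 is also made by macrophages and dendritic cells, and the part of such cells in this level was not tested. With 3.99 to 35.9 reads per library for these genes, no difference is claimed for either.

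**Figure D2:**
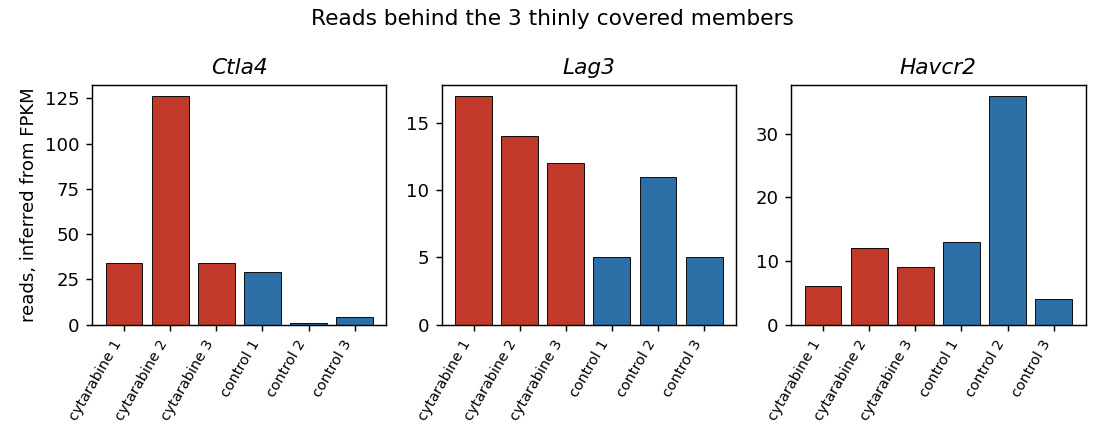
Bars give the reads inferred from FPKM for 3 members in each library (red cytarabine, blue control, axes from 0 and scaled separately). Ctla4 rests on 126 reads in cytarabine 2 and on 1.00 in control 2, and Havcr2 is highest in control 2.

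Of the 10 members, 8 passed the filter of a mean of at least 1 FPKM, with Tigit and Ctla4 nearest to it from above, at means of 1.44 and 1.37 FPKM, and Lag3 and Havcr2 below it, at 0.426 and 0.391 FPKM. In 4 of these 8 (Pdcd1, Cd274, Cd244 and Ctla4) all cytarabine libraries lay above all controls, and in 0 they all lay below. Over all 11703 genes tested, 10.9% did not overlap with cytarabine higher and 12.9% with cytarabine lower. Since the difference was known when the list was chosen, nothing is read from the members' count. The median log2 difference of the 8 members was 0.48, beside -0.0015 for all genes tested, and it was 0.24 over the 7 members other than Ctla4, which passed the filter only through the cytarabine group. Leaving out 1 library at a time, from 4 to 6 of the 8 did not overlap, beside from 3385 to 6533 of all 11703 genes. The 6 and the 6533 both arose without cytarabine 1. For Pdcd1, Cd274, Cd244 and Ctla4 the lowest difference with 1 library left out was 0.53, for Cd244. An adjusted p under 0.05 was reached by 0% of all genes in limma, while an unadjusted p under 0.05 was reached by 7.6% with cytarabine higher and 9.81% with cytarabine lower. These are 890 and 1148 genes, and scaling every library to the same level of Ptprc turned the split to 837 higher and 286 lower.

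**Figure D3:**
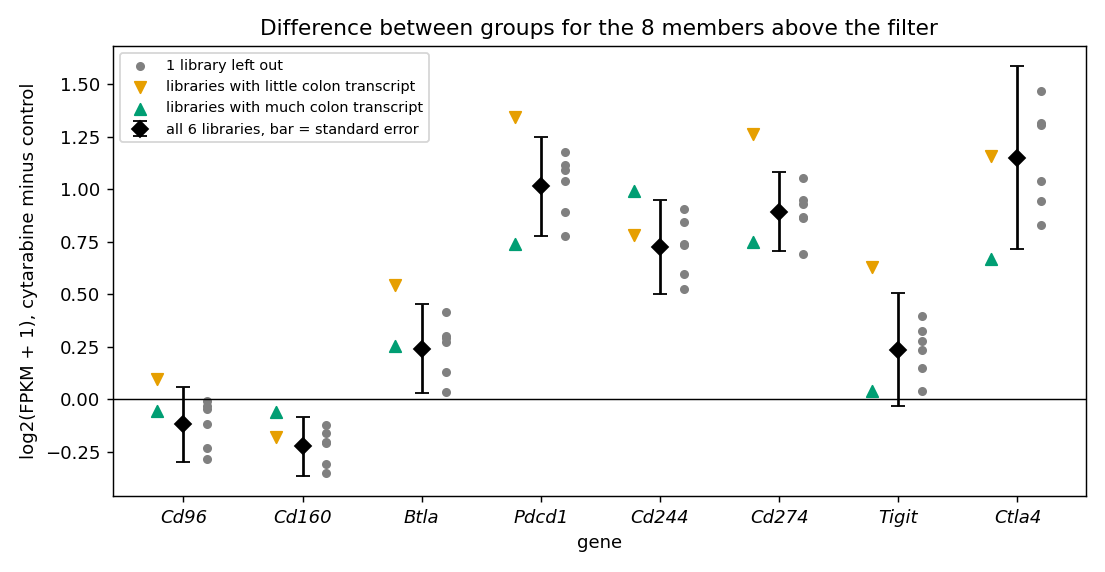
Black diamonds give the difference of mean log2(FPKM + 1), cytarabine minus control, with bars of 1 standard error. Grey points leave out 1 library each, and triangles use only the libraries with little or with much colon transcript. Pdcd1, Cd244, Cd274 and Ctla4 stay above 0 in all of these, as they must because their groups do not overlap. Cd96 lies on both sides of 0.

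The start regions of Pdcd1, Cd274 and Ctla4 are shown because these genes of the PD-1 and CTLA-4 axes differed in the same direction. Each is the 250 bases before the RefSeq start in GRCm38.p6, on the gene's strand, 5′ to 3′, at chr1:94052554-94052803 (minus), chr19:29367188-29367437 (plus) and chr1:60908775-60909024 (plus). Capitals mark the letters GGAAA, the core that NFAT factors bind, on either strand (TTTCC when read on the other strand).
Pdcd1: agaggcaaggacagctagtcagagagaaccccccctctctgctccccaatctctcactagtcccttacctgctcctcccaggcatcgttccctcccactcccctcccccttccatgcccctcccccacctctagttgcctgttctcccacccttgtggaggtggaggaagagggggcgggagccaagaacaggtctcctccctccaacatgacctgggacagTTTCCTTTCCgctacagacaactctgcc
Cd274: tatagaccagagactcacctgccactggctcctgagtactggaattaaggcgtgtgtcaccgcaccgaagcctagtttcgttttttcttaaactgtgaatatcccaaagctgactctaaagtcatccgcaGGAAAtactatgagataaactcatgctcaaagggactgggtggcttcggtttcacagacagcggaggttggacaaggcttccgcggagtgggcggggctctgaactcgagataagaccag
Ctla4: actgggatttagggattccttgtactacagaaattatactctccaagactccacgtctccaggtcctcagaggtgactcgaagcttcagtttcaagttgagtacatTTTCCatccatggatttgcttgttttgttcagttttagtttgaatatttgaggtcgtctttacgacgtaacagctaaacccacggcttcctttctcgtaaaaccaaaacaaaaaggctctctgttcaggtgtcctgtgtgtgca
In Pdcd1 a pair of GGAAA cores abut each other on the opposite strand, and Cd274 and Ctla4 hold 1 each. A window was given for 9 members, and 7 of the 9 held the core, as did 55.6% of the 32841 windows of all genes. The AP-1 letters TGANTCA were in the windows of 2 of 9 members, Cd244 and Havcr2, beside 6.75% of all windows. The letters TTCNNNGAA were in 2 of 9, Cd160 and Cd96, beside 7.02%. Cd160 was given 2 windows and held the GGAAA core and these letters only in the second. The shares of all genes are counted per window. The interferon element core (GAAA, a gap of 2 bases and GAAA again), the cyclic AMP element TGACGTCA, the kappaB motif and the CArG box of SRF were in 0 of 9, beside 2.98%, 1.55%, 3.90% and 1.47% of all windows. Both strands were searched, and a match of letters is not a bound site.

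The partners of the checkpoint genes were then read from lists chosen by function, and 66 of their 91 genes passed the filter. These lists too were written with earlier results of these data known. Counts of called genes, here and for each list below, are therefore a description. Of these 66, 12 had an unadjusted p under 0.05 in limma with cytarabine higher and 5 with cytarabine lower, beside the 7.6% and 9.81% of all genes given above, and 0 had an adjusted p under 0.05. Scaled to the same level of Ptprc, 18 were higher and 3 lower. Their median log2 fold change was 0.19. In all 17 the difference had the same direction within the libraries with little and within those with much colon transcript. For all of them but Csk and Nt5e the groups did not overlap, which fixed that direction in advance, so nothing is read from it. Among 13 tested ligands and counter-receptors, 2 were higher at an unadjusted p under 0.05 and 0 lower. They were Pdcd1lg2 and Lgals9, the gene of galectin-9, which binds TIM-3. Lgals9 was at 32.6, 38.3 and 44.6 FPKM with cytarabine and 28.0, 24.3 and 26.03 FPKM in controls (log2 fold change 0.53, standard error 0.13, adjusted p = 0.166 from limma). Ceacam1 had the largest log2 fold change of the list, 3.07, but it followed the colon genes, with 133 and 163 FPKM for cytarabine 2 and 3, 56.2 FPKM for control 1 and 7.41, 1.23 and 1.42 FPKM for the others. The MHC class II genes, ligands of LAG-3, crossed the groups as well, with H2-Aa at 7.95, 39.9 and 28.8 FPKM with cytarabine and 13.2, 30.3 and 4.12 FPKM in controls.

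Signalling molecules below the receptors were read next. PD-1 and BTLA recruit the phosphatases SHP-1 (Ptpn6) and SHP-2 (Ptpn11), which were at 45.0 to 55.5 and 42.8 to 49.8 FPKM over all libraries. Of 11 tested signalling partners, Sh2d1b1 was higher and Csk, a kinase that restrains Lck, was lower at an unadjusted p under 0.05. Over all genes 7.6% were higher and 9.81% lower by that measure, and 0 of the 11 had an adjusted p under 0.05. Csk was at 202, 161 and 159 FPKM with cytarabine and 200, 244 and 245 FPKM in controls, with cytarabine 1 just above control 1 (log2 fold change -0.40, standard error 0.13, adjusted p = 0.224 from limma).

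Interferon-gamma raises PD-L1 through JAK1, JAK2 and IRF1. Of 13 tested genes on that path or known to control PD-L1 in other ways, 4 were higher and 1 lower at an unadjusted p under 0.05, beside 7.6% and 9.81% of all genes. Irf1, the factor that acts on the Cd274 promoter, was at 99.1, 82.1 and 64.5 FPKM with cytarabine and 51.4, 49.5 and 49.2 FPKM in controls, without overlap (log2 fold change 0.68, standard error 0.15, adjusted p = 0.161 from limma). Jak1 was at 95.5 to 96.8 FPKM with cytarabine and 78.8 to 81.6 FPKM in controls (log2 fold change 0.26, adjusted p = 0.137 from limma), and Jak2 had one of 0.30 (adjusted p = 0.182 from limma). Stat3 was the fourth gene that was higher, and Myc was lower by the same measure (log2 fold change -0.56, adjusted p = 0.248 from limma). Ifng was listed at 0 in all 6 libraries.

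**Figure D4:**
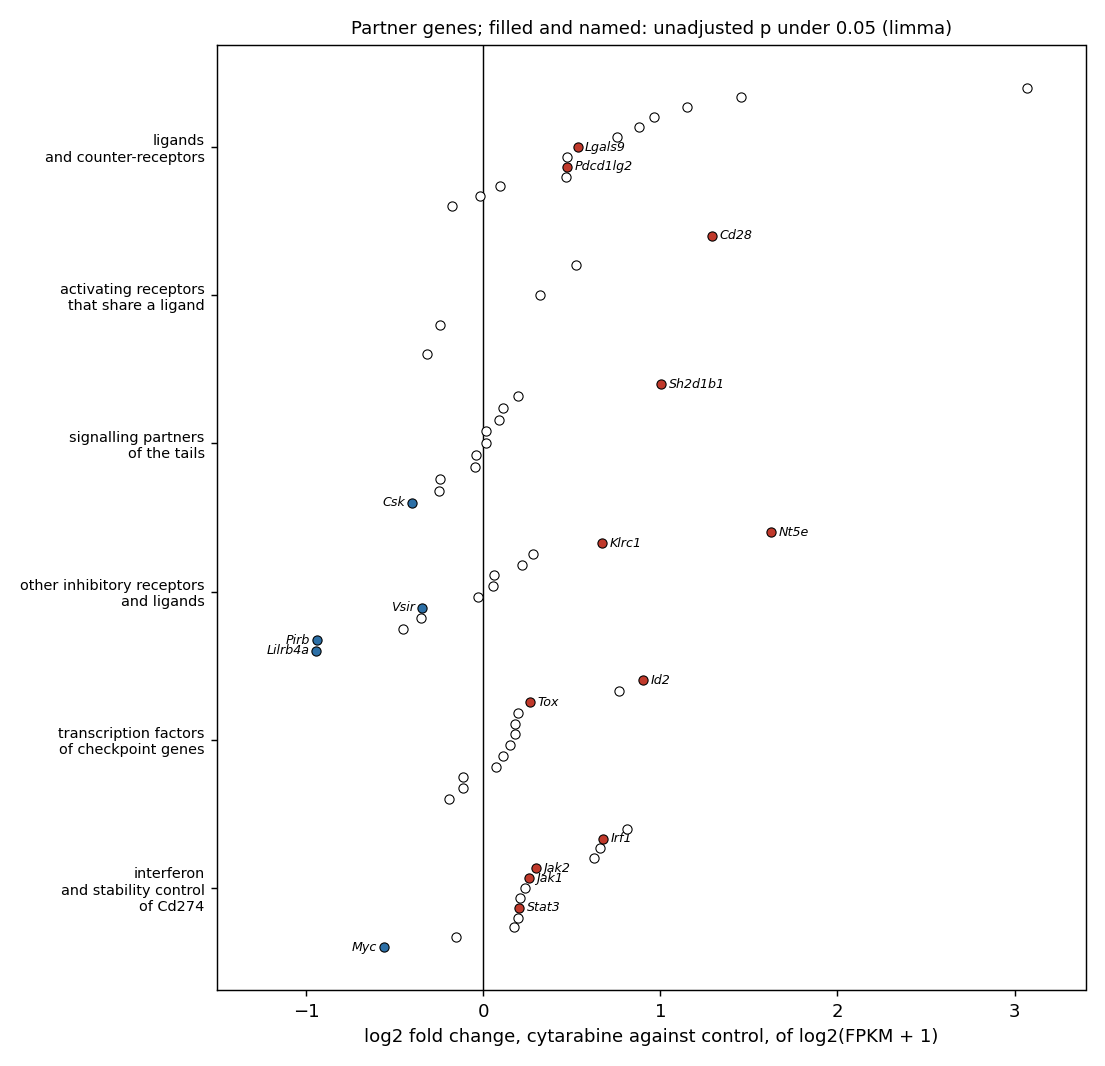
Each point is the log2 fold change of 1 tested partner gene, cytarabine against control, grouped by list. Filled and named points have an unadjusted p under 0.05 from limma, red higher and blue lower, and 12 are red and 5 blue.

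Of 12 tested genes of other inhibitory receptors and ligands, 2 were higher and 3 lower at an unadjusted p under 0.05 in limma. Over all genes these shares were 7.6% and 9.81%, and 0 of the 12 had an adjusted p under 0.05. The higher ones were Klrc1 (NKG2A, an inhibitory NK receptor) and Nt5e (CD73, an adenosine-producing enzyme). The lower ones were Vsir (VISTA, listed as 4632428N05Rik), Pirb (listed as Lilrb3) and Lilrb4a (listed as Lilrb4). Klrc1 was at 9.96, 8.34 and 13.8 FPKM with cytarabine and 4.83, 8.08 and 6.07 FPKM in controls (log2 fold change 0.67, standard error 0.23, adjusted p = 0.237 from limma). Nt5e followed the colon genes in part, with 4.397, 11.5 and 13.2 FPKM with cytarabine and 5.29, 1.48 and 1.10 FPKM in controls. Vsir was at 7.53, 6.20 and 7.30 FPKM with cytarabine and 7.99, 10.3 and 9.28 FPKM in controls (log2 fold change -0.35, adjusted p = 0.241 from limma). Pirb and Lilrb4a, receptors of myeloid cells with close paralogs among which reads could be divided, had log2 fold changes of -0.94 and -0.94 (adjusted p = 0.172 and 0.246 from limma). Pirb averaged 0.809 FPKM with cytarabine and 2.52 FPKM in controls. It passed the filter only through the control group, so nothing is read from its place among the lower genes. The 8 neutrophil genes summed to 1433, 199 and 189 FPKM with cytarabine and 1438, 2043 and 2004 FPKM in controls. Cytarabine 1 and control 1 were nearly equal in that sum, but not gene by gene. S100a8 and Camp were higher in cytarabine 1, and the others were lower, among them Retnlg (12.4 against 48.3 FPKM). Pirb was at 0.815 FPKM in cytarabine 1, as low as in cytarabine 2 and 3, and at 1.89 FPKM in control 1. The part of neutrophils in the levels of Pirb and Lilrb4a was not tested.

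Markers of other lymphocytes were examined because NK cells, T cells and B cells carry several members. The 7 NK cell genes summed to 4.73 to 7.21 FPKM with cytarabine and 2.68 to 4.37 FPKM in controls, without overlap. Of these, 5 were below 1 FPKM in every library, among them the defining genes Ncr1, Eomes and Tbx21, and Klra4 was listed at 0 throughout. Klrb1c made up most of the sum, at 5.07, 3.57 and 3.72 FPKM with cytarabine and 1.82, 3.00 and 2.00 FPKM in controls. The 11 T cell genes summed to 737 to 977 FPKM with cytarabine and 860 to 1044 FPKM in controls, with Cd247, Cd4, Cd5, Cd8a and Cd8b1 below 1 FPKM in every library. The 6 B cell genes summed to 8.27 to 21.1 and 6.14 to 10.3 FPKM, and the 7 dendritic cell genes to 1.98 to 2.98 and 1.601 to 3.35 FPKM. The 6 erythroid genes were highest in cytarabine 1, at a sum of 312 FPKM against 39.0 to 72.8 FPKM in the others. The NK cell sum thus differed between the groups in the same direction as Pdcd1, Cd274, Cd244 and Ctla4. Library by library, the NK cell sum ranked all 6 libraries in the same order as Cd274. Control 2 had the highest NK cell sum of the controls, and also their highest Cd274 and Cd244. It had the lowest Pdcd1 and Ctla4 of all 6. The part of NK cells in these levels was not tested. In RNA of sorted populations, more cells of a kind and more RNA per cell cannot be told apart.

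**Figure D5:**
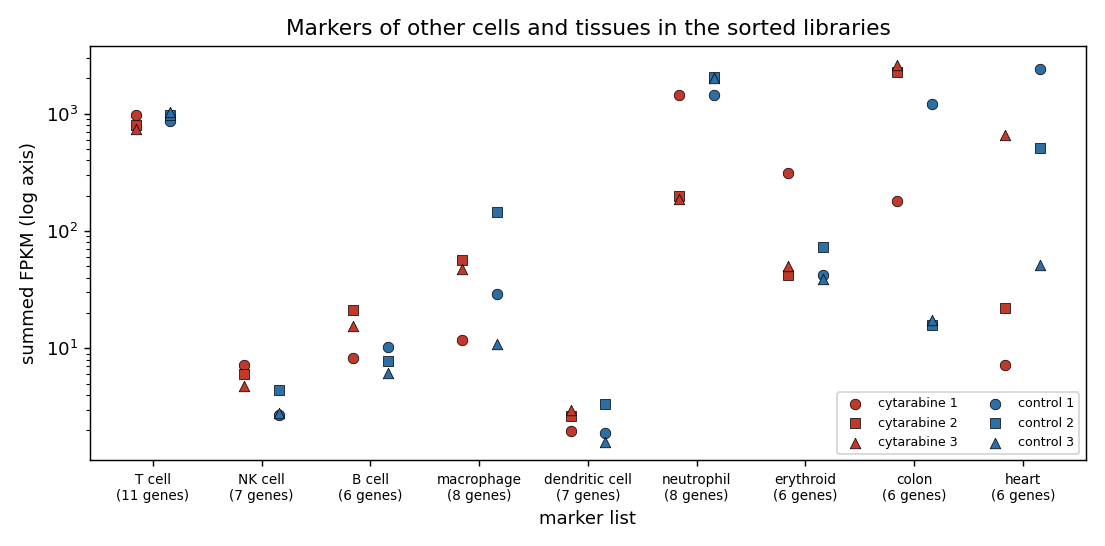
Points give the summed FPKM (log axis) of each marker list in each library, red for cytarabine and blue for control. The NK cell sums of the groups do not overlap, and the colon sum spans from 15.8 to 2619 FPKM across both groups.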

How the data were processed

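RNA of sorted C1498 cells from 3 cytarabine-treated and 3 control mice was sequenced as 75-base single-end reads. Per the labels, the submitters' processing notes and the methods of the study, the authors mapped reads to mm10 with TopHat 2.0.13, Bowtie2 2.2.3 and SAMtools 0.1.19 and deposited FPKM per gene symbol from Cufflinks 2.2.1. The annotation, the Cufflinks options and the strand setting are not given in the sources used here. Scaling factors from the median ratio of genes were 1.004 to 1.006 in every library, so scaling by them could change little. Whether the deposited values had already been scaled across libraries is not known. If so, the inferred totals of reads are scaled totals. Division by length and library size left no counts, so a count model was not used.

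Genes averaging 1 FPKM or more were fitted as log2(FPKM + 1) in limma 3.58.1 (R 4.3.3) by lmFit and a trended eBayes, with two-sided p-values adjusted by Benjamini and Hochberg over 11703 genes. A fold change on this scale understates the change of low genes. The fit was tested on simulated data. The members and all lists were chosen with earlier results of these data known. Named genes are all members and, of each other list, up to 4 tested genes per direction with the smallest p, plus for each tested member the 3 genes most correlated with it. Genes named beside these were chosen after their values were seen.

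Reads per gene were inferred from FPKM steps, with 200 bases assumed per fragment and the longest coding transcript of GENCODE M21 (GRCm38), the source of gene positions. Among low values, 68.9% to 74.0% lay within 0.1 of a whole read. Older symbols were matched through the RefSeq table, and 90 of 91 partner genes were found. The values of 1 of them are not reported here. Figures used matplotlib 3.10.9. Mice are separate animals, and same-numbered libraries are not paired in the labels. Alternatives were another pseudocount, other filters, other scalings, eBayes without trend, the replicate block, leaving out each library and comparisons within libraries of like colon transcript. Scaling to equal Ptprc was added after the data were seen.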

Additional observations from a re-analysis of the deposited data

How the results depend on the processing

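The differences of the tested members kept their direction in every alternative except for Tigit with quantile normalization and Cd96 in 2 settings, given with their values above. For Pdcd1, Cd274, Cd244 and Ctla4, whose groups do not overlap, that direction was fixed in advance wherever libraries were only left out or split. The alternatives gave 142 values, counting those of each tested member and those of the members' median. Of these, 139 moved by less than the spread between mice, and the others were Ctla4 with a pseudocount of 0.1 and Cd274 and Tigit (0.63) with little colon transcript. The replicate block and the other filters cannot change a member's difference, so their values were the same by construction. Genes with an adjusted p under 0.05 in limma numbered 0 (2038 had an unadjusted p under 0.05, from 1179 without control 3 to 4075 without cytarabine 1). A pseudocount of 0.1 gave 1, eBayes without trend gave 2, and leaving out 1 library gave from 0 to 5 (5 without cytarabine 1, 3 without cytarabine 2, and 1 each without control 1 and control 3). The 17 partner genes at an unadjusted p under 0.05 became 9 with the replicate block and ranged from 11 without cytarabine 3 to 27 without cytarabine 1. With the block 0 genes had an adjusted p under 0.05 and 994 an unadjusted one. Between libraries of like number, the departures from group means had correlations of -0.709, -0.247 and -0.594. With 3 libraries per group and unequal colon RNA, these values cannot tell whether the mice were handled in pairs. The 2781 genes whose groups did not overlap became 1737 when scaled to equal Ptprc, and from 3385 to 6533 with 1 library left out, the highest without cytarabine 1 and 4904 without control 1. The cause was not tested, beyond the fewer libraries of such fits.

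Some small changes of partner genes turned sign. With quantile normalization Entpd1 had a log2 fold change of -0.034 and Irf4 of -0.038. Scaled to equal Ptprc, Lck had 0.089, Maf 0.013, Nfatc2 0.0097 and Tnfrsf14 0.087. Leaving out 1 library, Lck ranged from -0.19 to 0.053, Tnfrsf14 from -0.30 to 0.23 and Inpp5d from -0.019 to 0.18. Depth limits Ctla4, Tigit, Lag3 and Havcr2, which rest on 1.00 to 126 reads per library.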

Other observations

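Transcription factors that act on checkpoint genes in T cells and NK cells were also read from a list. Of 12 tested, 2 were higher at an unadjusted p under 0.05 in limma and 0 lower, beside 7.6% and 9.81% of all genes, with 0 at an adjusted p under 0.05. Tox, a factor of exhausted T cells, was at 11.6, 10.9 and 11.8 FPKM with cytarabine and 9.26, 8.998 and 9.74 FPKM in controls (log2 fold change 0.27, standard error 0.072, adjusted p = 0.183 from limma). Id2, a repressor of E proteins needed by NK cells, was at 102, 79.7 and 119 FPKM with cytarabine and 43.1, 66.6 and 50.0 FPKM in controls (log2 fold change 0.90, standard error 0.21, adjusted p = 0.164 from limma). The 3 cytarabine libraries were above the controls for both genes. Tcf7, which marks T cells with self-renewal, was abundant, at 263 to 377 FPKM over all libraries, while Tbx21, Eomes, Foxp3, Prdm1 and Tox2 were below 1 FPKM in every library. Nr4a1 and Nfatc1 were at 16.3 to 25.6 and 29.7 to 42.1 FPKM.

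Members also varied together over the 6 libraries, which share their depth and tissue content with each point. On the log2(FPKM + 1) scale the highest Pearson correlations among the 8 tested members were 0.868 for Cd274 and Cd244 and 0.84 for Pdcd1 and Cd274, and the lowest was -0.786 for Ctla4 and Cd160. Among all tested genes, those most like Cd274 were Gzma (r = 0.996), Egr3 (r = 0.99) and Egr1 (r = 0.988). Those most like Pdcd1 were Gzf1 (r = 0.99), Npnt (r = 0.983) and Ddx19b (r = 0.983), and those most like Cd244 were Ptger4 (r = 0.993), Dll1 (r = 0.989) and Itpa (r = 0.988). With 6 libraries and 11703 genes such values are common, and from 21 genes (Tigit) to 151 genes (Cd96) correlated above 0.95 with a member.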
